A study of Mus musculus with 6 samples.

Results

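The genes described here build, move and degrade heme, the iron porphyrin that serves as the cofactor of cytochromes, catalase and other enzymes. They were chosen by name, with earlier results of these data known. The set held 3 genes of synthesis (Alas1, Urod and Fech), 3 of transport (Abcb6, Flvcr1 and Slc48a1) and 3 of breakdown (Hmox1, Hmox2 and Blvrb). All 9 were found once each among the 16426 genes of the deposited table, and all 9 passed the expression filter, which kept 10804 genes with at least 1 FPKM (fragments scaled by the length of the transcript and by the size of the library) in at least 3 of the 6 libraries. The lowest value of any of the 9 in any library was 3.1 FPKM, so none was tested on the strength of 1 group alone.

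The cells were 4T1-LM3, a mouse mammary carcinoma line, and every sample had received conditioned medium (CM). For 3 of them it had been conditioned by Tdo2high matrix fibroblasts (MFs), that is, fibroblasts rich in the enzyme that starts the kynurenine route of tryptophan breakdown. The other 3 samples received a control CM. The labels give neither the cells behind the control CM nor the time of exposure, and none of the labels names a Tdo2-low fibroblast medium, so an effect of Tdo2 cannot be told apart from other differences between the media. Whether the 3 samples of each group were grown as separate cultures is not labelled either, so the p-values cover the spread of these samples, and that spread may be technical.

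Heme is made in steps shared between the mitochondrion and the cytosol. Aminolevulinate synthase opens the route and sets its rate, and ferrochelatase closes it by placing iron into the porphyrin ring. Free heme is toxic because its iron promotes oxidation of lipids. Cells export heme, recycle it from lysosomes into the cytosol or open its ring with heme oxygenase, which yields iron, carbon monoxide and biliverdin. The iron that is set free joins the pool that feeds ferritin, and in an iron-dependent death such as ferroptosis, named in the study's title, that pool is of interest.

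The sum of FPKM was alike between libraries, from 438603 to 447415, with 10765 to 10791 genes at 1 FPKM or more. FPKM is already scaled by library size, so this sum does not measure that size. The read depth is unknown, since the table holds rounded FPKM. Keratins Krt8 (264 to 289 FPKM) and Krt18 (347 to 382 FPKM) were high in every library, but the epithelial markers Epcam and Cdh1 did not exceed 0.11 and 0.02 FPKM, so the label of a carcinoma cell rests here on keratins. Of 10 erythroid markers 5 were in the table, all under 1 FPKM, and their summed level was 0.19 to 0.55 FPKM with control CM and 0.29 to 0.37 FPKM with Tdo2high MFs CM. Of 8 macrophage markers 5 were in the table; Cd68 was the one that passed the filter, and the 5 summed to 2.67 to 2.99 and 2.6 to 2.85 FPKM. The 6 fibroblast markers summed to 80.5 to 82.3 and 80.7 to 82.7 FPKM, mostly Pdgfra, Pdgfrb and Dcn, while Col1a1, Col1a2 and Lum stayed at or under 0.12 FPKM. The range of each of the 3 sums overlapped between the media; within the fibroblast list Pdgfra was called higher and Dcn lower, and the part of such cells in the results was not tested. In bulk RNA, fewer cells of a type and less RNA per cell cannot be told apart.

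The comparison asked how the medium of Tdo2high MFs changed these genes relative to control CM. After Tdo2high MFs CM, 3 of the 9 rose and none fell: Blvrb, biliverdin reductase B, Slc48a1, a heme transporter of the lysosome, and Fech, ferrochelatase. These are 1 gene of each of the 3 groups. Among all tested genes 3.35% were called higher and 4.06% lower at an adjusted p under 0.05 by limma. The other 6 genes did not pass. At an unadjusted p under 0.05 limma gave 5 higher and 0 lower, against 9.68% and 14.1% of all tested genes. The values of the groups did not overlap for 5 of the 9, all higher with Tdo2high MFs CM, against 11.6% of all tested genes with no overlap in that direction. The median log2 fold change was 0.10 for synthesis, 0.20 for transport and 0.24 for breakdown, beside -0.01 for all tested genes. With 3 genes to a group, each median is the value of a single gene (Urod, Abcb6 and Hmox1), and none of those 3 passed the test.

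**Figure D1:**
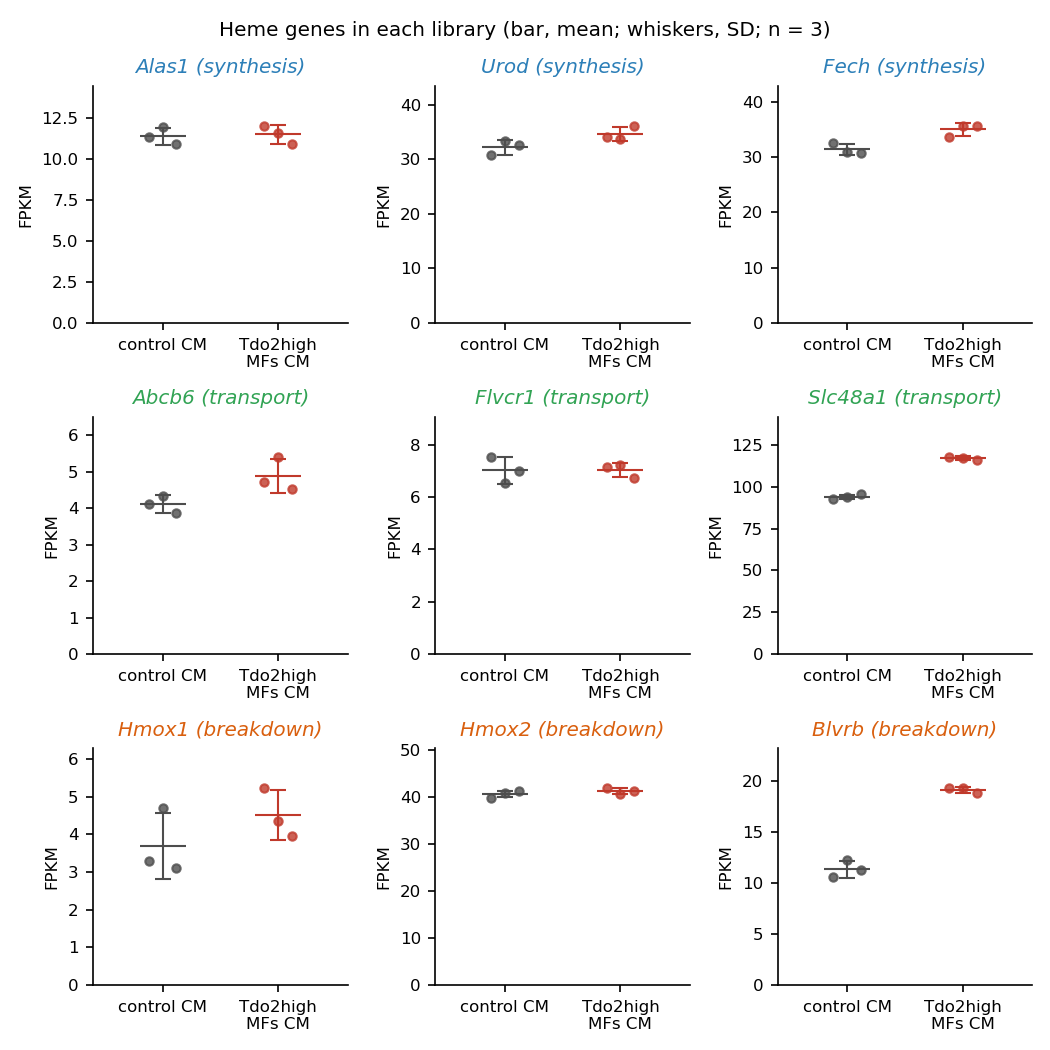
FPKM of the 9 heme genes in each library (points; vertical axis from 0 in each panel) with control CM and with Tdo2high MFs CM; horizontal bars are means and whiskers are SD, n = 3 per group. The points of Blvrb and Slc48a1 lie well apart between the media, those of Fech, Urod and Abcb6 lie apart by a small margin, and those of Alas1, Flvcr1, Hmox1 and Hmox2 overlap.

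Synthesis was followed at its entry, middle and end. Alas1 encodes the aminolevulinate synthase of cells outside the red lineage. It stood at 11.3, 11.9 and 10.9 FPKM in the 3 control CM libraries and at 12.0, 11.5 and 10.9 FPKM in the 3 Tdo2high MFs CM libraries. The groups overlapped, and the log2 fold change was 0.01 (95% interval -0.10 to 0.12; adjusted p = 0.903 by limma). Without control CM replicate 3 the estimate was -0.015 and without Tdo2high MFs CM replicate 1 it was -0.018. Alas2, the form of red cell precursors, did not exceed 0.34 FPKM and was not tested.

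The promoter of Alas1 is shown because NRF1, a regulator of genes for mitochondrial proteins, is known to act on it. No RefSeq promoter window was found for Slc48a1 or Hmox1, and Fech was left out of the search. For the other 6 of the 9 genes, windows (GRCm38.p6, 250 bases before to 50 after a start site) were used, 10 in all. Each was searched on both strands for the NRF1 site GCGCANGCG, the antioxidant response element TGACNNNGC, the E-box CACGTG and the GC box GGGCGG, a match on both strands at 1 place counting once. Among 32851 such windows of the genome 6.25% held the NRF1 site, 12.4% the antioxidant response element, 7.15% the E-box and 35.7% the GC box; an antioxidant response element can overlap a GC box. The window of Alas1 at chr9:106247905-106248204, minus strand, held 3 matches to the NRF1 site, in capitals, which begin at bases 2, 30 and 31 of the transcript, the last pair overlapping on opposite strands.
Alas1: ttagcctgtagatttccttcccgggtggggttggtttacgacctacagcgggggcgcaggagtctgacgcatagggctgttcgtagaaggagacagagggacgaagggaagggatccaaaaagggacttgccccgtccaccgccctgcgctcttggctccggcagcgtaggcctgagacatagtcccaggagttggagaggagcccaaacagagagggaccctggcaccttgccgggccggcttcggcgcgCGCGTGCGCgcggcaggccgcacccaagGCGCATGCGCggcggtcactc

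Urod, uroporphyrinogen decarboxylase, works in the cytosol in the middle of the route. Its values were 30.7, 33.4 and 32.6 FPKM with control CM and 34.1, 33.7 and 36.2 FPKM with Tdo2high MFs CM. The lowest Tdo2high MFs CM library lay just above the highest control, and the log2 fold change of 0.10 (95% interval 0.01 to 0.19) did not pass adjustment over all genes (adjusted p = 0.158 by limma). Its promoter window held 1 E-box, at position -49 relative to the start site.

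Fech rose from 32.5, 30.9 and 30.7 FPKM with control CM to 33.7, 35.6 and 35.7 FPKM with Tdo2high MFs CM. Every Tdo2high MFs CM library was above every control, but control CM replicate 1 and Tdo2high MFs CM replicate 1 were close to each other. The means were 31.4 ± 0.991 and 35.0 ± 1.13 FPKM (SD, n = 3 per group), an 11.4% gain, with a log2 fold change of 0.15 ± 0.04 (SE; adjusted p = 0.034 by limma). This call ended in 8 of 16 alternative settings. Among them were the fits without control CM replicate 2 (0.14; adjusted p = 0.0877), without control CM replicate 3 (0.14; 0.102), without Tdo2high MFs CM replicate 2 (0.14; 0.110) and without Tdo2high MFs CM replicate 3 (0.14; 0.113). The call also ended on the TPM scale (adjusted p = 0.0521), with no filter on low values (0.0792) and with no intensity trend (0.0792), all by limma.

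Of 4 other steps of the route, Alad, Uros, Cpox and Ppox, none passed the test by limma, nor in any of the 16 alternatives, and their median log2 fold change was -0.07. At an unadjusted p under 0.05 there were 0 higher and 1 lower, beside 9.68% and 14.1% of all tested genes. Cpox, coproporphyrinogen oxidase, and Ppox, protoporphyrinogen oxidase, act just before ferrochelatase. The mean of Cpox was 9.87 ± 0.0700 FPKM in control libraries and 9.09 ± 0.374 FPKM in Tdo2high MFs CM libraries (log2 fold change -0.11; adjusted p = 0.174). Ppox had 17.7 ± 1.32 and 16.0 ± 1.33 FPKM (-0.14; adjusted p = 0.225), so both estimates lay on the opposite side of 0 from that of Fech, without passing the test. Alad (28.6 ± 1.09 and 28.0 ± 1.53 FPKM) and Uros (6.12 ± 0.253 and 6.36 ± 0.315 FPKM) had log2 fold changes of -0.03 and 0.05. Since FPKM is scaled by length, levels can be set beside each other: Urod, Fech and Alad were the most abundant of these steps with control CM, Uros the least, and Alas1 lay between Cpox and Ppox. Urod and Fech were neighbours in that order and did not differ beyond their spread. Fech was 2.77 ± 0.151 times as abundant as Alas1 with control CM and 3.06 ± 0.242 times with Tdo2high MFs CM (SD, n = 3 per group), ratios whose ranges overlap between the media.

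**Figure D2:**
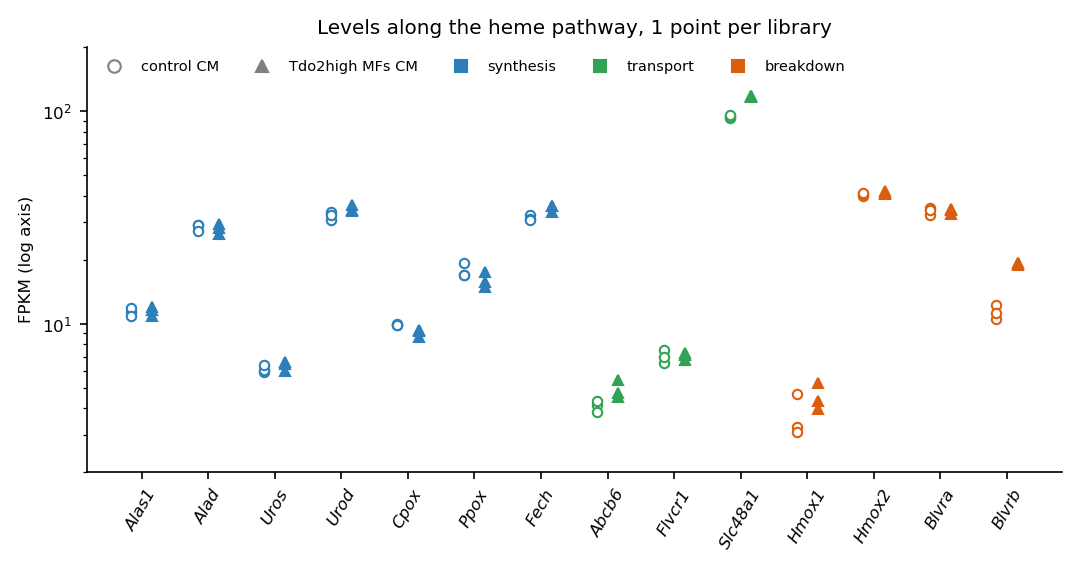
FPKM of genes along the heme pathway on a log axis, 1 point per library, with open circles for control CM and triangles for Tdo2high MFs CM. The levels run from 3.1 FPKM for Hmox1 to 118 FPKM for Slc48a1, and the media separate visibly for Slc48a1 and Blvrb.

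Transport held the most abundant of the 9 genes. Slc48a1, also known as HRG1, carries heme out of the lysosome and endosome into the cytosol. It had 92.6, 93.8 and 95.4 FPKM with control CM and 118, 117 and 116 FPKM with Tdo2high MFs CM. Libraries within a group differed by little and the groups lay far apart. The means were 93.9 ± 1.37 and 117 ± 1.15 FPKM (SD, n = 3 per group), a gain of 24.6%, and the log2 fold change was 0.31 ± 0.03 (SE; 95% interval 0.26 to 0.37; adjusted p = 9.97e-05 by limma). The call held in all 16 alternative settings, with log2 fold changes of 0.30 to 0.33. By size its rise ranked 113 of 10804. Slc48a1 lies on chromosome 15 from 97784365 to 97792692 (GRCm38) and overlaps Hdac7; the counting is not stated to use strand, so reads of a shared stretch cannot be told apart. Hdac7 itself had a mean of 89.6 FPKM with control CM and 89.8 FPKM with Tdo2high MFs CM (log2 fold change 0.0029; adjusted p = 0.962).

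Abcb6, a transporter of porphyrins in the membranes of mitochondria and other organelles, was among the weakly expressed genes of the set. Its values were 4.13, 4.34 and 3.86 FPKM with control CM and 4.73, 5.42 and 4.52 FPKM with Tdo2high MFs CM. The groups did not overlap, with Tdo2high MFs CM replicate 2 the highest, and the log2 fold change of 0.20 (95% interval 0.05 to 0.36) did not pass (adjusted p = 0.111 by limma). Over its 15 alternatives the estimate ran from 0.12 to 0.25 and never passed.

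Flvcr1 is a carrier of the plasma membrane known as a heme exporter and a choline carrier. It had 7.55, 6.54 and 6.98 FPKM with control CM and 7.14, 7.24 and 6.74 FPKM with Tdo2high MFs CM. The Tdo2high MFs CM values fell within the control range, and the log2 fold change was 0.0044 (95% interval -0.12 to 0.13; adjusted p = 0.974 by limma), with the opposite sign on the TPM scale (-0.0050). The ratio of Slc48a1 to Flvcr1 was thus 12.3 to 14.3 with control CM and 16.2 to 17.2 with Tdo2high MFs CM. The promoter of Flvcr1 is shown because it was the only one of the 10 windows with an antioxidant response element, the motif bound by NRF2. Of all such windows of the genome 12.4% held that motif. The window is chr1:191026141-191026440 on the minus strand, and the match, in capitals, begins at position -151 relative to the start site. It overlaps a GC box that begins at position -146.
Flvcr1: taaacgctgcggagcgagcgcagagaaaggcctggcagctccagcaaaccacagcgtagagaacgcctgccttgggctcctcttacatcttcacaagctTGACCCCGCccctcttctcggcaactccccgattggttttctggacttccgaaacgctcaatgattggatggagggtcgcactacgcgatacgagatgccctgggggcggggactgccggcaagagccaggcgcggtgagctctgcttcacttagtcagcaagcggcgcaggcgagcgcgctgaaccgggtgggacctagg

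Of the other carriers of heme and porphyrins, 8 were tested by limma and none passed in either direction, also at an unadjusted p under 0.05, with a median log2 fold change of -0.04. Abcg2, which exports porphyrins, had 2.17 ± 0.272 and 1.80 ± 0.181 FPKM (-0.18; adjusted p = 0.243). Hpx, the heme scavenger hemopexin, and its receptor Lrp1 had log2 fold changes of -0.17 and -0.08. Slc46a1 (0.11), Pgrmc1 (-0.04), Pgrmc2 (-0.04), Hebp1 (0.15) and Hebp2 (0.08) did not pass either. Flvcr2, a relative of Flvcr1, did not exceed 0.07 FPKM. All 9 genes for mitochondrial supply and partners were tested with 0 calls by limma and a median of -0.03. There, 1 was higher and 1 lower at an unadjusted p under 0.05, beside 9.68% and 14.1% of all tested genes. The smallest adjusted p there was that of Slc25a39, a carrier of glutathione into mitochondria, at 92.4 ± 4.17 and 84.4 ± 1.22 FPKM (-0.13; adjusted p = 0.0542), and it passed in 3 of 16 alternatives.

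Breakdown held the largest difference and the noisiest gene. Hmox1 and Hmox2 encode the inducible and the constitutive heme oxygenase, which open the porphyrin ring, and Blvrb encodes biliverdin reductase B, also called flavin reductase. Hmox1 had 3.28, 4.69 and 3.1 FPKM with control CM and 5.24, 4.35 and 3.95 FPKM with Tdo2high MFs CM. Control CM replicate 2 lay above Tdo2high MFs CM replicates 2 and 3, so the groups overlapped. The spread was 23.6% of the mean with control CM and 14.6% with Tdo2high MFs CM, the largest of the 9 genes in both groups. The log2 fold change was 0.24 with a 95% interval of -0.03 to 0.52 (adjusted p = 0.272 by limma), an interval that includes both 0 and the difference seen for Slc48a1. Without control CM replicate 2 it was 0.39 (adjusted p = 0.0540), and over all 15 alternatives 0.13 to 0.39, never past the threshold.

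Hmox2 had an SD of 1.7% of the mean with control CM and 1.62% with Tdo2high MFs CM, at 39.9, 40.9 and 41.2 FPKM with control CM and 42.0, 40.7 and 41.3 FPKM with Tdo2high MFs CM. The groups overlapped, and the log2 fold change was 0.02 with a 95% interval of -0.04 to 0.09 (adjusted p = 0.692 by limma). Part of Hmox2 overlaps Cdip1, which had a mean of 19.5 FPKM with control CM and 19.3 FPKM with Tdo2high MFs CM. Hmox2 was 8.72 to 13.3 times as abundant as Hmox1 with control CM and 8.02 to 10.4 times with Tdo2high MFs CM, ranges that overlap. Heme oxygenase mRNA in these cells was therefore mostly Hmox2 with either medium.

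Blvrb had 10.6, 12.2 and 11.2 FPKM with control CM and 19.3, 19.4 and 18.8 FPKM with Tdo2high MFs CM. All 3 Tdo2high MFs CM libraries stood far above all 3 controls. The means were 11.3 ± 0.825 and 19.1 ± 0.303 FPKM (SD, n = 3 per group), a 1.69-fold rise with a log2 fold change of 0.71 ± 0.05 (SE; 95% interval 0.60 to 0.82; adjusted p = 3.31e-05 by limma). By size the rise ranked 19 of 10804 tested genes. The call held in all 16 alternative settings, with log2 fold changes from 0.57 (pseudocount of 5) to 0.76 (without control CM replicate 2). Blvrb lies on chromosome 7 from 27447978 to 27465981 (GRCm38).

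Blvra, the other biliverdin reductase and the main one of adult tissue, did not pass the test. It had 33.8 ± 1.22 FPKM with control CM and 33.9 ± 0.874 FPKM with Tdo2high MFs CM (log2 fold change 0.0019, 95% interval -0.08 to 0.08; adjusted p = 0.981). Blvrb thus made up 24.5% to 25.9% of the summed FPKM of both reductases in the control CM libraries and 35.2% to 36.9% in the Tdo2high MFs CM libraries. Por, the reductase that supplies electrons to heme oxygenase, had a log2 fold change of -0.0027 (adjusted p = 0.965).

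The promoter of Blvrb is shown because Blvrb changed most. The window at the upstream start site, chr7:27447728-27448027 on the plus strand, held 5 GC boxes, all on the opposite strand and therefore read as CCGCCC, in capitals. Windows of genes that did not pass held GC boxes too, up to 4 in Hmox2, 3 in Urod, 2 in Abcb6, 2 in Flvcr1 and 1 in Alas1. Neither window of Blvrb held the antioxidant response element, the NRF1 site or the E-box as searched.
Blvrb: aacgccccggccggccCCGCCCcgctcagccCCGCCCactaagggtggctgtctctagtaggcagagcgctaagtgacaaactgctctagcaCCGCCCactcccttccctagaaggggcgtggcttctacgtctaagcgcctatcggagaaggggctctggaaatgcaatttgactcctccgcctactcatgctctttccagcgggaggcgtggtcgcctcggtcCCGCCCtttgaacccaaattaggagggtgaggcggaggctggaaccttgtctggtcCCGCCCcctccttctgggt

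With control CM the order of levels among the 9 genes was Slc48a1, Hmox2, Urod, Fech, Alas1, Blvrb, Flvcr1, Abcb6 and Hmox1. Urod and Fech, Alas1 and Blvrb, and Abcb6 and Hmox1 were neighbours that did not differ beyond their spread. With Tdo2high MFs CM the order was kept save that Fech stood at 35.0 and Urod at 34.7 FPKM and that Blvrb, at 19.1 FPKM, stood above Alas1, at 11.5 FPKM, with no overlap of their 3 values. The summed FPKM of the 9 genes was 233 to 239 with control CM and 274 to 276 with Tdo2high MFs CM, and most of that gap lay in Slc48a1, the most abundant of them.

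**Figure D3:**
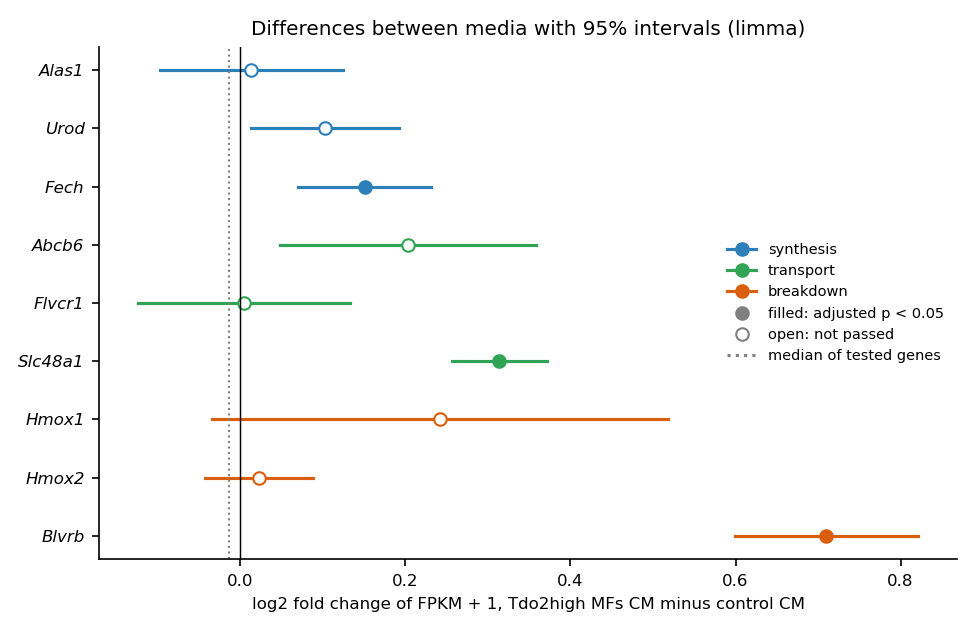
Log2 fold change of FPKM + 1 between Tdo2high MFs CM and control CM for each of the 9 genes (points) with 95% intervals from limma (lines); filled points passed an adjusted p of 0.05 and the dotted line is the median of all tested genes. Blvrb stands apart at 0.71. The intervals of Slc48a1, Fech, Urod and Abcb6 also lie above 0, though Urod and Abcb6 did not pass. The interval of Hmox1 is the widest.

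Heme acts on a small set of regulators, among them Bach1, a repressor of Hmox1 that leaves DNA when it binds heme, and Eif2ak1, a kinase that slows translation when heme is short. The list of regulators also held Nfe2l2, Keap1, Maff, Mafg and Mafk, and a place on it does not mean that heme binds the product. Of 10 tested regulators none passed in either direction by limma, and the median log2 fold change was 0.05. At an unadjusted p under 0.05 there were 3 higher, Bach1, Nfe2l2 and Keap1, and 0 lower, beside 9.68% and 14.1% of all tested genes. Bach1 had 11.9 ± 0.379 FPKM with control CM and 13.2 ± 0.259 FPKM with Tdo2high MFs CM; the groups did not overlap, and the log2 fold change of 0.14 did not pass (adjusted p = 0.0633), though it did in 2 of 16 alternatives. Eif2ak1 had a log2 fold change of 0.03 (adjusted p = 0.750).

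Among proteins that carry heme, 6 of 13 tested genes rose and none fell by limma, beside 3.35% and 4.06% of all tested genes, with a median log2 fold change of 0.09. This list was chosen with earlier results of these data known, so the contrast with all genes is descriptive. At an unadjusted p under 0.05 there were 6 higher and 1 lower, beside 9.68% and 14.1% of all tested genes. The gene that was lower was cytochrome c, Cycs, at 16.2 ± 1.17 and 14.5 ± 0.823 FPKM (-0.15; adjusted p = 0.132). The largest rise was that of Ptgs1, the constitutive cyclooxygenase, at 54.4, 53.2 and 55.4 FPKM with control CM and 71.6, 72.8 and 70.6 FPKM with Tdo2high MFs CM (0.39; adjusted p = 4.13e-05). Cyb5b, the cytochrome b5 of the outer mitochondrial membrane, rose from 86.0 ± 1.73 to 102.1 ± 1.66 FPKM (0.25; adjusted p = 0.000882), and the calls of Ptgs1, Cyb5b and Cyp1b1 (0.16) held in all 16 alternatives. Those of catalase, Cat (0.15), of Cyp51, a demethylase of sterol synthesis (0.17), and of Cyb5a (0.13) held in 10, 7 and 6 of 16. Heme maturation genes gave 0 calls of 3 by limma. Their counts at an unadjusted p under 0.05 were 0 higher and 2 lower, beside the same shares of 9.68% and 14.1%. Hccs, the lyase that attaches heme to cytochrome c, had 5.07 ± 0.267 and 4.13 ± 0.369 FPKM (-0.24; adjusted p = 0.0562). Of the genes that handle the iron, the ferritin chains Fth1 (0.42; adjusted p = 0.00113) and Ftl1 (0.47; adjusted p = 0.000771) rose; retrocopies of either gene may take or add reads. Tfrc (0.11), Slc11a2 (0.02) and Steap3 (-0.15), which serve iron uptake, did not pass, and the iron exporter Slc40a1 did not exceed 0.07 FPKM.

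The genes whose pattern over the 6 libraries was most like that of Hmox1 were sought by the root mean square distance between profiles of log2(FPKM + 1), each centred on its own mean. The closest were Lnpep (distance 0.0643), 3110009E18Rik (0.0819), Tmem53 (0.0836), Itga1 (0.0911) and Mustn1 (0.0965). Lnpep had 4.57, 5.93 and 3.75 FPKM with control CM and 7.03, 5.93 and 5.48 FPKM with Tdo2high MFs CM, high in the same control library as Hmox1. Of these 5 genes Itga1 passed the test between the media (0.33; adjusted p = 0.0294).

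**Figure D4:**
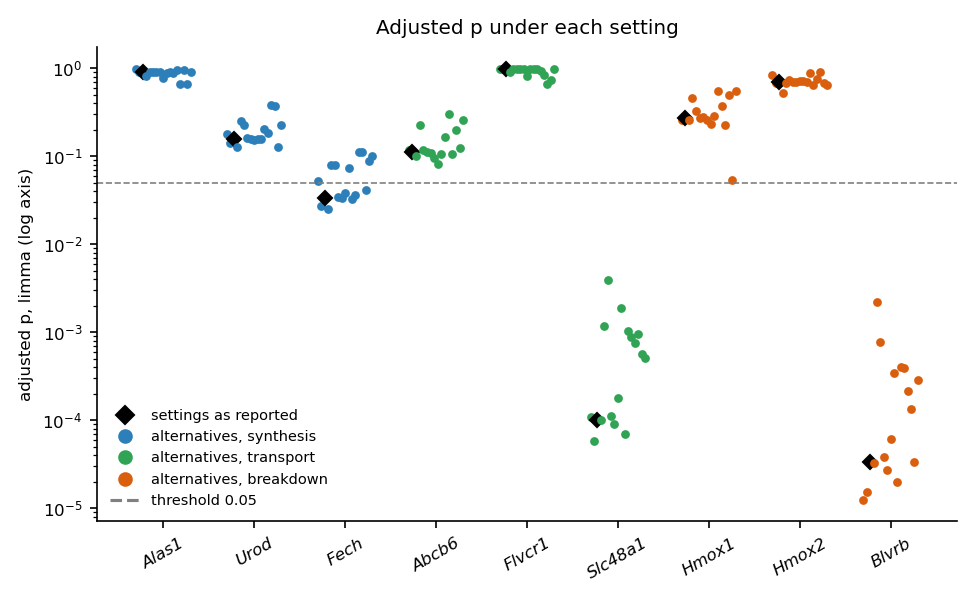
Adjusted p by limma on a log axis for each of the 9 genes under the settings as reported (diamonds) and under each alternative (circles), with the threshold of 0.05 dashed. Blvrb and Slc48a1 stay below the line throughout, Fech falls on both sides of it, and the other 6 genes stay above it.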

How the data were processed

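Messenger RNA of 6 samples was profiled as polyA RNA copied with random hexamers, per the labels' protocols. The authors deposited 1 table of FPKM per gene, rounded to 2 decimals, per the file headers; the build was GRCm38, per the submitters' processing notes, and the sources used here name no aligner, quantifier or annotation. FPKM is relative to the library total, so a change in abundant genes shifts all other values. Low values (7994 of 0.05 to 0.6 FPKM, divided by the smallest of the same gene) lay on average 0.233 from a whole number, near the 0.25 of values without steps. Whole reads were not recovered, so no count model or counting interval was used.

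Samples were grouped by their titles. Values were tested as log2(FPKM + 1) by limma 3.58.1 in R 4.3.3 (intensity trend, two-sided, no covariate) on 10804 genes, with Benjamini-Hochberg adjustment over all of them and a threshold of 0.05; fold changes on this scale understate those of weak genes. An exact permutation test of 3 against 3 cannot go below 0.1 and was not used. The test was tried on simulated data first. A total of 16 alternatives changed the pseudocount, the filter, the scaling or the variance model, added a replicate block or left out 1 library. The 9 genes and the other lists were chosen with earlier results of these data known. All 9 genes are named, and from the other lists the genes that passed, the other steps of synthesis (1 gene is not reported here), Blvra and Bach1; other list genes were named after their values were seen. Promoters and positions come from RefSeq (GRCm38.p6), matched by gene number. Figures were drawn with matplotlib 3.10.9.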

Additional observations from a re-analysis of the deposited data

How the results depend on the processing

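Blvrb and Slc48a1 passed, and Alas1, Urod, Abcb6, Flvcr1, Hmox1 and Hmox2 did not, under every alternative that could be run for them; with a minimum of 5 FPKM, Abcb6 and Hmox1 were not tested. Fech lost its call with no filter on low values (log2 fold change 0.15), on the TPM scale (0.14), with no trend (0.15) and with the replicate block (0.15), and ran from 0.14 to 0.18 without 1 library, with 4 of 6 calls lost. The cause was not tested. Flvcr1, at 0.0044 as reported, turned to -0.0050 on the TPM scale and ran from -0.039 to 0.051 without 1 library, and Alas1 ran from -0.018 to 0.049. Of the 9 genes 3 or 2 were called higher under each alternative and 0 lower.

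Over all tested genes, 362 were higher and 439 lower as reported. Without a filter 199 were higher and 195 lower, and without a trend 277 were lower. The balance of directions moved with the scaling: 434 were higher and 369 lower by the median of ratios, 385 and 401 by quantile normalization, and 320 and 505 on the TPM scale. Leaving out 1 library gave 209 to 293 higher and 186 to 266 lower, with fewer samples in each fit. The replicate block gave 296 higher and 326 lower and ended no call among the 9 genes but that of Fech. Samples with the same number did not deviate together (r across genes of -0.023, -0.0305 and 0.018), so the numbers were not taken to pair them. Read depth is unknown, which leaves the error of weak genes such as Hmox1 and Abcb6 to the spread of 3 libraries.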
